A study of Mus musculus with 16 samples.

Results

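The changes described here are those that mouse hearts shared after 1, 2 and 3 days of exposure to aggressor mice. A feature was a member when its group mean moved in one direction from control in all 3 exposures. Of 22763 features tested, 10790 were members (47.4%), 4203 of them higher (18.5%) and 6587 lower (28.9%) in exposed hearts. The features were 16786 gene names, 3045 long noncoding RNA regions and 2932 unnamed transcripts, each represented by its brightest probe.

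The series modelled posttraumatic stress in C57BL/6 mice by placing a subordinate mouse with an aggressor. Exposed animals stayed in a mesh box inside the aggressor's cage, were attacked there for short periods, and rested for 1 day before the heart was taken. The groups were T1R1 (1 day of stress), T2R1 (2 days), T3R1 (3 days) and control, with 4 individual hearts each, every heart on its own 1-colour Agilent array. Control mice sat in the same kind of box in a large cage with no aggressor, and their labels place all 4 in the 2-day arm. The labels give neither age nor hour of dissection, and the protocol text names longer runs of days than the sample titles. Each level below is log2 intensity relative to the 75th percentile of its array, and each difference is exposed minus control on that log2 scale, ± SE of the fit.

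A heart answers threat through adrenaline, noradrenaline and glucocorticoids, which act on muscle and vessel cells alike. It also keeps its own circadian clock: the proteins BMAL1 and CLOCK switch on their own inhibitors, the Per and Cry genes, and the Rev-erb receptors, which hold down Arntl, the gene for BMAL1. Glucocorticoids, feeding and activity are known to shift this clock and to set genes of muscle protein turnover and fuel use.

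Cardiac muscle genes marked every array as heart: Myh6, Myl2, Tnnt2 and Actc1 ranked at or above the 99.9 percentile of brightness. The 75th percentile of intensity was 286 to 408 scanner units on the 12 exposed arrays, 551 on control replicate 1 and 258 to 273 on the other control arrays. Control replicate 1 stood apart from its group: its correlation averaged 0.988 against arrays of T3R1 and 0.97 against control replicates 2, 3 and 4. T1R1 replicate 1 was the exposed array that correlated more with control replicates 2, 3 and 4 (mean 0.987) than with its own group (0.982). Over 26 cell cycle genes the median deviation from each gene's mean was -1.63 to -0.71 in T1R1, -0.66 to 0.41 in T2R1 and 1.57 to 2.07 in T3R1 hearts, against 2.23 in control replicate 1 and -1.79 to -1.16 in the other controls. Both tested lung epithelium markers were high in T3R1 replicate 1 and in control replicate 1 (median deviation 3.83 and 3.83). The arrays lay on 2 slides, T3R1 and control on one and T1R1 and T2R1 on the other. For T1R1 or T2R1 against control, exposure and slide cannot be told apart, and T3R1 minus control is the difference within 1 slide.

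The size of the shared change was tested as the mean of the 3 exposures minus control, with limma and Benjamini-Hochberg adjustment over all features. At an adjusted p under 0.05 this contrast called 1559 features (6.85%), of which 943 were members. These 943 shared calls (4.14% of features) comprised 548 higher (2.41%) and 395 lower (1.74%). The one direction is how members were chosen, and the 3 exposures share the same 4 control hearts, so it is a description and not a result. The 12 exposed arrays did not overlap the 4 control arrays for 28 of the higher and 95 of the lower calls, and over all features 35 (0.154%) lay above and 110 (0.483%) below. Without control replicate 1 there were 1720 higher and 3434 lower calls (22.6% of features, 7.56% higher and 15.1% lower), which held 401 and 384 of the calls above. With slide as a fixed block, where the estimate is the T3R1 difference, there were 32 higher and 21 lower calls (0.233%). Without control replicate 4 there were 166 higher and 44 lower calls. Of the lower calls 8 entered the test through the control hearts alone, as the group with all 4 hearts well above background, and 121 of the higher calls through exposed groups alone; a feature so kept is high in that group by construction. A fit of 12 exposed against 4 control hearts, which counts the differences among exposures as spread, called 0 by limma, with 3681 features at an unadjusted p under 0.05.

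The calls that rose and those that fell differed in how the exposures compared. Among the 548 that rose the median difference was 0.79 in T1R1, 0.98 in T2R1 and 0.19 in T3R1, and 479 of them were smallest in T3R1. Among the 395 that fell the medians were -0.36, -0.42 and -0.34, and 207 were smallest in T3R1. An F test among the exposures leaves out the control means but takes its spread from all 16 arrays. It called 400 of the first (73.0%) and 78 of the second (19.7%), against 25.2% of all features. The calls were chosen with that same spread, so these shares are a description. T2R1 minus T1R1, the comparison within the other slide, called 0 of the 943 and 0 of all 22763 features by limma. Of the 943, 147 (15.6%) had an unadjusted p under 0.05, against 7.83% of all features. Set against control one at a time, T1R1 called 618 of the 943 (9.85% of all features), T2R1 834 (18.4%) and T3R1 50 (0.694%). The 943 were chosen by the mean and sign of these same differences, so their counts here are a description and not a result. Without control replicate 1, T3R1 minus control called 29.4% of all features.

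**Figure D1:**
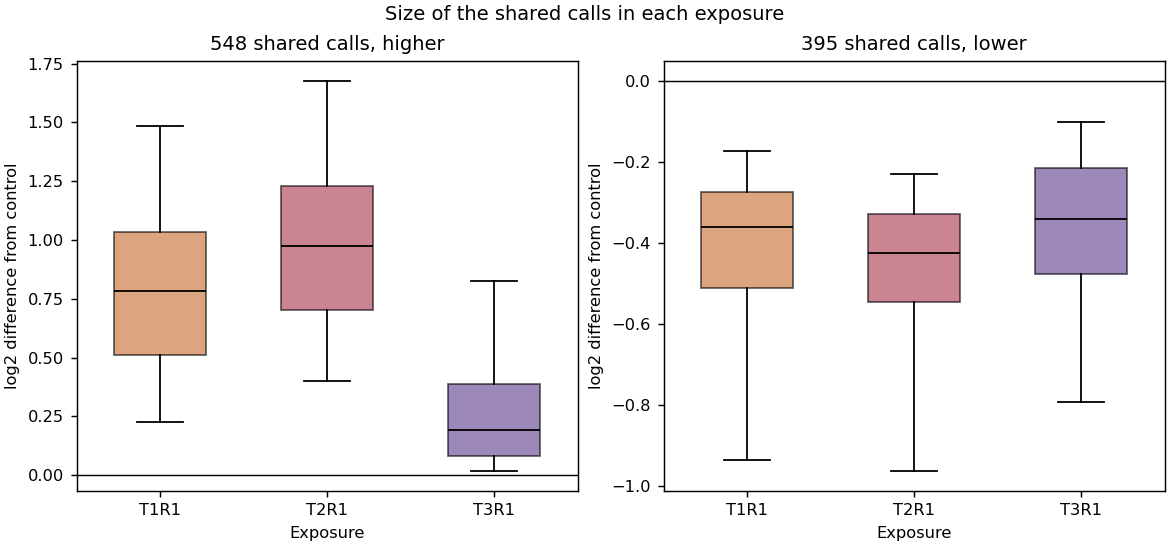
Log2 difference from control of the 548 higher and 395 lower shared calls in T1R1, T2R1 and T3R1. Boxes span the quartiles with the median as a line, whiskers run from the 5th to the 95th percentile, and the higher calls are smallest in T3R1 (median 0.19) while the lower calls have medians between -0.42 and -0.34.

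The circadian clock was the gene list with the most shared calls. Of 17 clock genes tested, 4 rose and 2 fell, and the list median was -0.051, against 0.0059 over all features. Of all features, 2.41% rose and 1.74% fell. Ciart, for a repressor of CLOCK and BMAL1, Nr1d1, for Rev-erb alpha, Dbp, for an activator of clock output genes, and Bhlhe41, for another repressor of the loop, rose. Arntl and Cry1 fell. Bhlhe41 was named after its values were seen. The promoters of clock genes that moved are shown where they hold a motif through which the loop is known to act. Promoters were matched by symbol for 6 of the 6 clock calls. They are RefSeq sequences of GRCm38.p6, from 250 bases before to 50 bases after the start, 5′ to 3′ on the gene's own strand. Capitals mark the E-box CACGTG or the nuclear receptor half-site AGGTCA.
Ciart, chr3:95882179-95882478, minus strand: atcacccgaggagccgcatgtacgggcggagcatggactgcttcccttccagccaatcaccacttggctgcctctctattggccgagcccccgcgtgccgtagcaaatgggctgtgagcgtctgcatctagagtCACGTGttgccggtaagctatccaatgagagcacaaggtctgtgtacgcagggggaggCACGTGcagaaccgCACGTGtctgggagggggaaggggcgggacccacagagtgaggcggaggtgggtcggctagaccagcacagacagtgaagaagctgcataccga
Bhlhe41, chr6:145865371-145865670, minus strand: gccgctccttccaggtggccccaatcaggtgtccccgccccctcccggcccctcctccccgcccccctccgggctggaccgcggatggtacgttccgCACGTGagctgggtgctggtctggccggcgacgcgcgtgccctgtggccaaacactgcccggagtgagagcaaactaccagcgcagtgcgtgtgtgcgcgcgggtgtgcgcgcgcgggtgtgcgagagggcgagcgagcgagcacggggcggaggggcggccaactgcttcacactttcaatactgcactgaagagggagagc
Cry1, chr10:85185005-85185304, minus strand: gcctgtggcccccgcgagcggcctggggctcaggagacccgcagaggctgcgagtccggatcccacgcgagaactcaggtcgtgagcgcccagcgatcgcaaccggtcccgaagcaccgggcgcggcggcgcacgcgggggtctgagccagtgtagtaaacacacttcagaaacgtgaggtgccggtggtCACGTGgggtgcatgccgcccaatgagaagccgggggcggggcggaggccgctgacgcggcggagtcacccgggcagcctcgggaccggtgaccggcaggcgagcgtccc
Arntl, chr7:113207261-113207560, plus strand: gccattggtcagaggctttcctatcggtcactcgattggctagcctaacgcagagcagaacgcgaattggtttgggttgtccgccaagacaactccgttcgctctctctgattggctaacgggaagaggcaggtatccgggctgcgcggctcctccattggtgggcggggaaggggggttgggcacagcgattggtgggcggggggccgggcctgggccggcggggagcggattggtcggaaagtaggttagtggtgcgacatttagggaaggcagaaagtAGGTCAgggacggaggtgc
Both strands were searched for these motifs and for the D-boxes TTATGTAA and TTACGTAA. Ciart held 3 E-boxes, Bhlhe41 and Cry1 held 1 each, and Arntl held 1 half-site in 1 of its 2 listed promoters. No match lay in the windows of Dbp and Nr1d1. Over 32851 promoters of this length the E-box occurred in 7.15%, the half-site in 16.3%, TTATGTAA in 0.938% and TTACGTAA in 0.119%. These matches describe the letters in a window, not binding.

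Ciart levels were -1.64, -2.58, -1.79 and -1.52 in T1R1 hearts, -0.71, -1.41, -1.26 and -2.16 in T2R1 hearts and -3.04, -2.35, -2.37 and -4.21 in T3R1 hearts, against -3.83, -3.91, -4.51 and -4.13 in control hearts. One T3R1 heart lay among the controls, and the other 11 exposed hearts lay above all of them. Ciart rose by 2.01 ± 0.32 (adjusted p = 0.00656), a 4.03-fold change, with 2.21 in T1R1, 2.71 in T2R1 and 1.10 in T3R1. It was well above background in every exposed heart and in 3 control hearts. Ciart thus entered the test through the exposed hearts alone, where it is high, and its size is not exact. The exposures differed (adjusted p = 0.0188), and Ciart passed with any 1 of the 16 arrays left out (adjusted p up to 0.0299) and under 4 of 4 background and scaling alternatives. Nr1d1 spanned -0.37 to 1.57 (median 1.04) over the 12 exposed hearts, against -0.64 to 0.18 over the control hearts. One T3R1 heart again lay within the control range and the other 11 above it. Nr1d1 rose by 1.03 ± 0.24 (adjusted p = 0.0254), with 1.27 in T1R1, 1.16 in T2R1 and 0.67 in T3R1, and did not pass without control replicate 4 (adjusted p up to 0.0743).

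Dbp, whose protein activates D-box genes, rose by 0.70 ± 0.13 (adjusted p = 0.0122), and its second probe gave 0.80. Its differences of 0.85 in T1R1, 1.16 in T2R1 and 0.082 in T3R1 differed among the exposures (adjusted p = 0.000852), and T3R1 hearts (4.94, 5.36, 5.26 and 4.93) lay among the controls (4.93, 5.42, 5.12 and 4.69). Dbp did not pass without control replicate 4 (adjusted p up to 0.0523). Bhlhe41 rose by 0.48 ± 0.11 (adjusted p = 0.0251), with 0.52, 0.57 and 0.35 in the same order, while its second probe, at 0.18, did not pass. Bhlhe41 did not pass without control replicate 3 or 4 (adjusted p up to 0.102).

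Arntl, whose product drives the loop, spanned -2.58 to -0.64 (median -1.92) over the 12 exposed hearts, against -1.50 to -0.15 over the control hearts. All T2R1 hearts lay below the controls, and all T3R1 hearts lay within the control range. Arntl fell by 1.05 ± 0.22 (adjusted p = 0.0158), with -1.17 in T1R1, -1.65 in T2R1 and -0.33 in T3R1, which differed among the exposures (adjusted p = 0.00688). Arntl did not pass without control replicate 3 or 4 (adjusted p up to 0.0642). Cry1, for a repressor of the loop, had its lowest group mean in T3R1. Its levels were -3.42, -3.46, -3.36 and -3.17 in T3R1 hearts, against -2.89, -2.44, -2.47 and -2.45 in control hearts. These groups did not overlap. Cry1 fell by 0.65 ± 0.12 (adjusted p = 0.0122), with -0.49 in T1R1, -0.69 in T2R1 and -0.79 in T3R1. Among the 6 clock calls it was the one past the threshold in T3R1 minus control (adjusted p = 0.0346). It was also past it in T2R1 minus control (adjusted p = 0.00675). Cry1 did not pass without control replicate 4 (adjusted p up to 0.0501).

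The other clock genes named here did not pass. Nfil3, for a repressor of D-box genes, was at -0.41 (adjusted p = 0.0924) and passed without control replicate 1, at -0.58 (adjusted p = 0.0061). Per1 was at 0.39, Per2 at 0.063 and Per3 at -0.052, Nr1d2 at -0.023, Clock at -0.056, Cry2 at -0.051, Tef at -0.087 and Hlf at -0.13. None of these 8 moved in one direction in the 3 exposures. Npas2 was too dim to test.

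**Figure D2:**
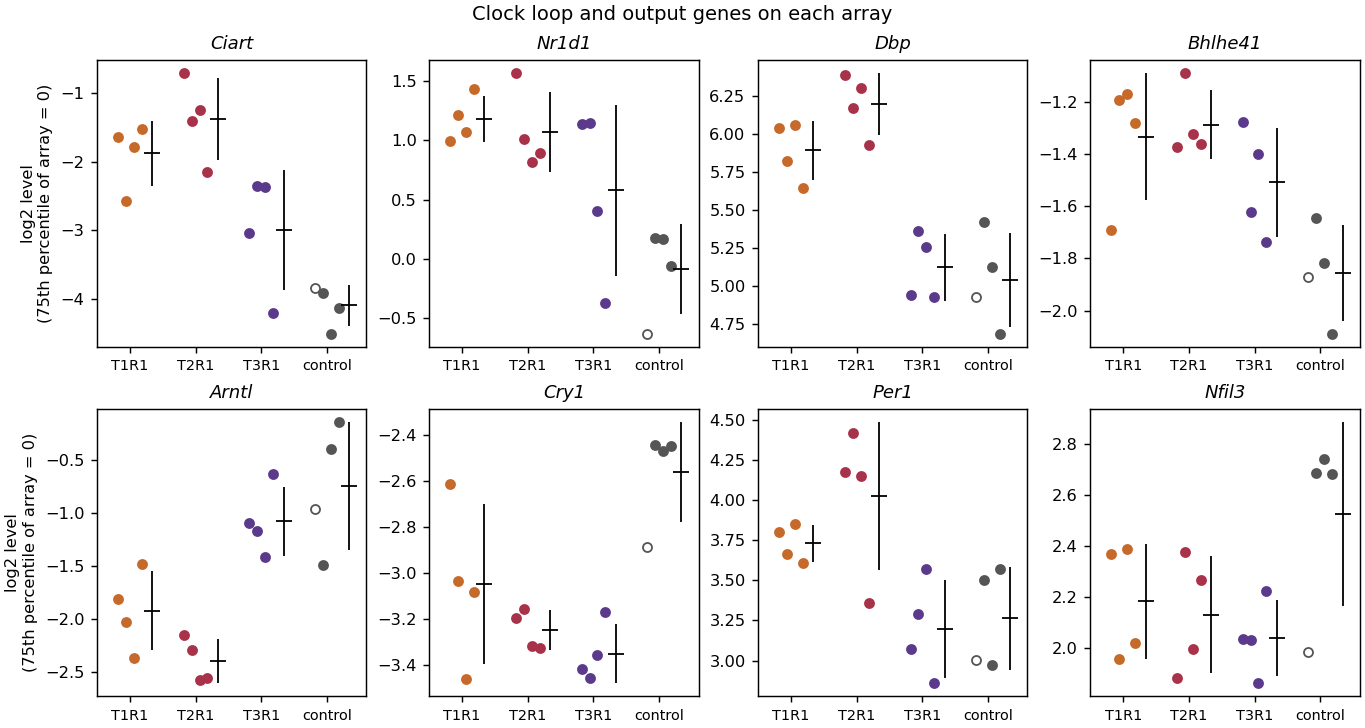
Log2 level (75th percentile of the array = 0) of 8 clock genes in each T1R1, T2R1, T3R1 and control heart (points), with mean and SD as bars (n = 4 each). The open circle is control replicate 1. Dbp in T3R1 hearts lies among the controls, and the Cry1 mean is lowest in T3R1.

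Lcn2 had the largest rise among the genes named here. It encodes lipocalin 2, an iron-binding protein of neutrophils and inflamed tissue. Its levels were 0.99, 3.53, 3.10 and 3.79 in T1R1 hearts, 3.32, 3.68, 3.13 and 3.61 in T2R1 hearts and 3.38, 4.51, 3.59 and 3.00 in T3R1 hearts, against 3.29, 0.21, -0.014 and -0.038 in control hearts. Control replicate 1 lay among the exposed hearts, and the other controls lay below all 12. Lcn2 rose by 2.44 ± 0.58 (adjusted p = 0.0253), a 5.43-fold change, with 1.99 in T1R1, 2.57 in T2R1 and 2.76 in T3R1. The difference was 3.25 (adjusted p = 0.00197) without control replicate 1, and Lcn2 did not pass without control replicate 2, 3 or 4 (adjusted p up to 0.0992). The neutrophil markers Mpo, Ngp, Ltf, Cxcr2, Mmp8 and Mmp9 were too dim to test. Of 10 neutrophil markers tested, 6 were of one higher direction, against 18.5% of all features, and Lcn2 alone passed. The summed level of these markers, in multiples of the array's 75th percentile, was 43.2 to 72.8 in T1R1, 55.6 to 92.4 in T2R1 and 45.6 to 68.1 in T3R1, against 41.6 to 46.4 in control hearts. In bulk tissue, more cells of a type and more RNA per cell cannot be told apart, and the part of neutrophils in this result was not tested.

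Cd247, for a signalling chain of the T cell receptor, was the one call among 10 T and NK cell markers. It spanned -3.51 to -2.23 (median -2.74) over the 12 exposed hearts, against -4.04 to -3.36 over the control hearts. Its T1R1 and T2R1 hearts all lay above the controls, and T3R1 hearts overlapped them. Cd247 rose by 0.76 ± 0.13 (adjusted p = 0.00898), with 0.91 in T1R1, 1.10 in T2R1 and 0.28 in T3R1, which differed among the exposures (adjusted p = 0.00442). The summed T and NK markers were 17.5 in T1R1 replicate 1 and 9.69 to 10.7 in the other T1R1 hearts. They were 11.5 to 12.4 in T2R1 and 7.23 to 10.2 in T3R1, against 9.17 to 10.4 in control hearts. T1R1 replicate 1 was also high in summed B cell markers (9.88, other T1R1 hearts 2.85 to 3.39) and thymus markers (6.00, others 1.32 to 1.51). Control replicate 1 had B cell markers at 11.3. The part of these cells in the result was not tested. Of 21 coagulation and plasma genes, Klkb1, for the plasma kallikrein precursor, rose by 0.87 ± 0.21 (adjusted p = 0.0295). It did not pass without control replicate 2 or 4 (adjusted p up to 0.117). Klkb1 was well above background in 3 control hearts, so it entered the test through the exposed hearts alone, where it is high. F3, for tissue factor, which starts coagulation, fell by 0.47 ± 0.13 (adjusted p = 0.043), but its second probe, at -0.21, did not pass. F3 passed in 5 of 16 fits with 1 array left out (adjusted p 0.00397 to 0.132).

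Interferon-induced genes held 4 calls, all lower. Of 28 interferon-induced genes, 4 fell and 0 rose, 11 were of one lower direction, and the list median was -0.088. Of all features, 1.74% fell and 28.9% were of one lower direction. The 4 that fell, Gbp4, Gbp7, Gbp3 and Iigp1, encode GTPases of cell-autonomous host defence. Promoters of Gbp3, Gbp5 and Gbp7 are shown because these genes lie close together on chromosome 3 and interferon is known to act through the marked motifs. Capitals mark the core of the interferon-stimulated response element, taken as a pair of TTTC runs with any 2 bases between them, and the STAT site TTCNNNGAA. In Gbp3 overlapping matches of the first motif run together.
Gbp3, chr3:142559794-142560093, plus strand: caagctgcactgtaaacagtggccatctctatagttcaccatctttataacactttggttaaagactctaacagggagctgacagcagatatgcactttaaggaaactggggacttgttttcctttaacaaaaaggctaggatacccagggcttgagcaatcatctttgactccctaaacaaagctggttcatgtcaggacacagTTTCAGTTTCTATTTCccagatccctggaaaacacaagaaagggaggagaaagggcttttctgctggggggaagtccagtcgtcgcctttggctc
Gbp5, chr3:142496684-142496983, plus strand: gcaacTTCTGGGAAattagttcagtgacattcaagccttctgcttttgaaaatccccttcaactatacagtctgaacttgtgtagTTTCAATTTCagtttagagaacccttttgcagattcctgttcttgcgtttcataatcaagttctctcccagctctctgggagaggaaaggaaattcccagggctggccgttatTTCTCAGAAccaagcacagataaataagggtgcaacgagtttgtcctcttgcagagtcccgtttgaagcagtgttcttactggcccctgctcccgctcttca
Gbp7, chr3:142530086-142530385, plus strand: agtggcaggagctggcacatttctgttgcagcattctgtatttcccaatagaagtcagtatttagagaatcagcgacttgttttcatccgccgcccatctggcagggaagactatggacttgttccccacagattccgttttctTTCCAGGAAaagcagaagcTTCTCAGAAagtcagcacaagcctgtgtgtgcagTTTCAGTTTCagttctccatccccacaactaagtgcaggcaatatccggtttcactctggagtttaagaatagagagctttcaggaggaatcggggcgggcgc
Both strands were searched. The first motif occurred in 3.44% and the second in 8.3% of 32851 promoters. The other listed Gbp3 promoter held neither.

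Gbp4 levels were 0.72, 0.29, 0.86 and 0.87 in T1R1 hearts, 0.46, -0.25, 0.21 and 0.44 in T2R1 hearts and -0.28, -0.70, -0.42 and -0.44 in T3R1 hearts, against 0.94, 0.70, 1.12 and 1.02 in control hearts. T1R1 hearts overlapped the controls, and all T2R1 and T3R1 hearts lay below them. Gbp4 fell by 0.80 ± 0.14 (adjusted p = 0.00925), with -0.26 in T1R1, -0.73 in T2R1 and -1.41 in T3R1, which differed among the exposures (adjusted p = 0.000867). It was past the threshold within the slide, in T3R1 minus control (adjusted p = 0.00629), and also in T2R1 minus control (adjusted p = 0.009). Gbp4 passed with any 1 of the 16 arrays left out (adjusted p up to 0.0413) and under 4 of 4 background and scaling alternatives. Gbp7 fell by 0.49 ± 0.12 (adjusted p = 0.0264), with -0.26, -0.70 and -0.52, and did not pass without control replicate 3 or 4 (adjusted p up to 0.102). Iigp1 fell by 0.50 ± 0.12 (adjusted p = 0.028), with -0.29, -0.67 and -0.55, and did not pass without control replicate 3 or 4 (adjusted p up to 0.101). The second Iigp1 probe, at -0.26, did not pass. Gbp3 fell by 0.47 ± 0.13 (adjusted p = 0.0499), was at -0.35 (adjusted p = 0.0707) without control replicate 1, and passed in 2 of 16 fits with 1 array left out (adjusted p 0.0435 to 0.123).

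Gbp5 and Irf1 were named after their values were seen. Gbp5 fell by 0.53 ± 0.14 (adjusted p = 0.0386) on its brightest probe, but its other probe rose by 0.42 (adjusted p = 0.0209 over all probes), so its direction is not settled. Irf1, for a transcription factor that drives Gbp genes, fell by 0.23 ± 0.059 (adjusted p = 0.0338), with -0.066 in T1R1, -0.27 in T2R1 and -0.35 in T3R1, and passed in 10 of 16 fits with 1 array left out (adjusted p 0.0201 to 0.0932). Genes known for their response to type I interferon did not pass: Ifit1 was at 0.066, Isg15 at 0.25, Mx1 at 0.38 and Oas2 at -0.093, none of one direction.

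Fbxo32 and Klf15 were the calls of the muscle atrophy list. Of 17 FoxO target and atrophy genes, 11 were of one lower direction, 2 fell and 0 rose, while 9 fell without control replicate 1. Of all features, 28.9% were of one lower direction, 1.74% fell, and 15.1% fell without control replicate 1. Fbxo32, for the ubiquitin ligase atrogin-1, spanned 0.093 to 0.88 (median 0.51) over the 12 exposed hearts, against 0.62 to 1.56 over the control hearts. Fbxo32 fell by 0.68 ± 0.16 (adjusted p = 0.0258), with -0.69 in T1R1, -0.75 in T2R1 and -0.62 in T3R1, and did not pass without control replicate 2, 3 or 4 (adjusted p up to 0.104). Klf15, for a transcription factor of amino acid and lipid use that glucocorticoids induce, spanned 0.45 to 1.39 (median 0.93) over the 12 exposed hearts, against 0.87 to 2.22 over the control hearts. For both genes control replicate 1 lay inside the exposed range and the other 3 controls above it. Klf15 fell by 0.81 ± 0.22 (adjusted p = 0.0446), with -0.77 in T1R1, -0.77 in T2R1 and -0.88 in T3R1. It was at -1.10 (adjusted p = 0.00374) without control replicate 1 and passed in 3 of 16 fits with 1 array left out (adjusted p 0.00374 to 0.161).

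No gene of the respiratory chain and fatty acid lists passed with all 16 arrays. Of 29 respiratory chain genes, 19 were of one lower direction and 0 passed by limma, with 0 of them at an unadjusted p under 0.05. Without control replicate 1, 26 fell, in a fit that called 15.1% of all features lower. Of 24 fatty acid genes, 12 were of one lower direction and 0 passed by limma, with 2 at an unadjusted p under 0.05. Without control replicate 1, 15 fell, in that same fit. Of all features, 28.9% were of one lower direction with all 16 arrays. Of 26 glucocorticoid-induced genes, Lcn2 rose and Klf15 fell. Fkbp5, a classical target of the receptor, was at -0.12, Tsc22d3 at -0.15 and Tat, for a liver enzyme of tyrosine breakdown, at 0.60 (adjusted p = 0.0736), and none passed. Crhbp, for the binding protein of corticotropin-releasing hormone, was called by the mean contrast, at 0.97 (adjusted p = 0.0388), but was not of one direction (1.85, 1.57 and -0.50).

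**Figure D3:**
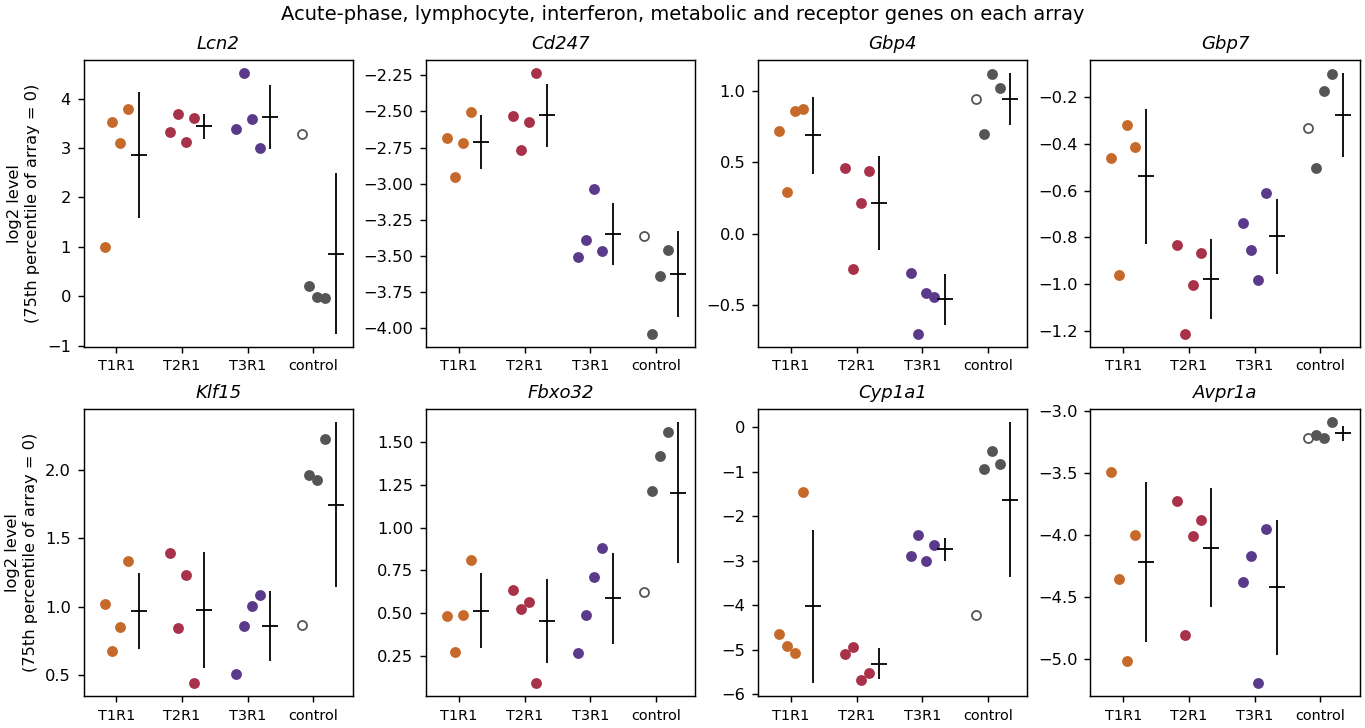
Log2 level (75th percentile of the array = 0) of 8 genes in each T1R1, T2R1, T3R1 and control heart (points), with mean and SD as bars (n = 4 each). The open circle is control replicate 1, which for Lcn2, Klf15, Fbxo32 and Cyp1a1 lies inside the exposed range while the other controls lie outside it. Avpr1a is the gene shown whose exposed and control hearts do not overlap.

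Cyp1a1 and Cyp1b1, enzymes induced through the aryl hydrocarbon receptor, were the calls among 17 genes of that list. Cyp1a1 levels were -4.66, -4.93, -5.07 and -1.47 in T1R1 hearts, -5.09, -4.94, -5.69 and -5.53 in T2R1 hearts and -2.89, -2.43, -3.001 and -2.66 in T3R1 hearts, against -4.23, -0.95, -0.53 and -0.82 in control hearts. Control replicate 1 lay among the exposed hearts and the other controls above all 12. Cyp1a1 fell by 2.40 ± 0.66 (adjusted p = 0.0441), with -2.40 in T1R1 and -1.11 in T3R1. It was not well above background in any T2R1 heart, where it was at least 8.09-fold lower than in control, taking the dimmest signal that is well above background in its place. The fit takes such hearts at their measured signal, so the fitted sizes of Cyp1a1, Scube3 and Nefl are not exact. Cyp1a1 was at -3.26 (adjusted p = 0.00375) without control replicate 1 and passed in 2 of 16 fits with 1 array left out (adjusted p 0.00375 to 0.143). Cyp1b1 fell by 0.53 ± 0.14 (adjusted p = 0.0395), with -0.67 in T1R1, -0.84 in T2R1 and -0.080 in T3R1, which differed among the exposures (adjusted p = 0.0109). It passed in 9 of 16 fits with 1 array left out (adjusted p 0.0178 to 0.135).

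Among receptors and signalling proteins, Avpr1a encodes the vasopressin V1a receptor of vessels. It spanned -5.19 to -3.49 (median -4.08) over the 12 exposed hearts, against -3.22 to -3.09 over the control hearts, with no overlap. It was well above background in 2 hearts of each exposure and in all 4 control hearts, so it entered the test through the control hearts alone, where it is high, and its size is not exact. Avpr1a fell by 1.07 ± 0.26 (adjusted p = 0.0285), with -1.04 in T1R1, -0.92 in T2R1 and -1.25 in T3R1, and did not pass without control replicate 2, 3 or 4 (adjusted p up to 0.0911). Gnal, for a G protein alpha subunit that activates adenylyl cyclase, also entered through the control hearts alone and was called lower (adjusted p = 0.0271), the one call among 19 adrenergic receptor and regulator genes. It was not well above background in any T1R1 or T2R1 heart, at least 1.28-fold and 1.77-fold lower there than in control, and was well above it in 2 T3R1 hearts. Gnal did not pass without control replicate 3 or 4 (adjusted p up to 0.102). Scube3, for a secreted signalling protein, fell by 1.13 ± 0.28 (adjusted p = 0.0287), with -0.96 in T2R1 and -0.20 in T3R1 (adjusted p = 0.00189 among the exposures). It was at least 2.1-fold lower in T1R1 hearts, none of them well above background, and did not pass without control replicate 3 or 4 (adjusted p up to 0.109).

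Matrix genes held calls in both directions. Of 30 matrix genes, 2 rose and 1 fell, while without control replicate 1, 22 rose and 1 fell. Of all features, 2.41% rose and 1.74% fell, and 7.56% rose and 15.1% fell without control replicate 1. Col6a2, for a collagen VI chain, rose by 0.64 ± 0.15 (adjusted p = 0.0271), with 0.12 in T1R1, 0.71 in T2R1 and 1.09 in T3R1 (adjusted p = 0.00555 among the exposures), while its second probe, at 0.23, did not pass. Col6a2 did not pass without control replicate 2, 3 or 4 (adjusted p up to 0.0977). Col4a2, for a basement membrane collagen chain, rose by 0.60 ± 0.17 (adjusted p = 0.047) and passed in 2 of 16 fits with 1 array left out (adjusted p 0.0121 to 0.147). Omd, for the proteoglycan osteomodulin, fell by 1.05 ± 0.20 (adjusted p = 0.0117), with -1.17 in T1R1, -1.53 in T2R1 and -0.44 in T3R1 (adjusted p = 0.0115 among the exposures), and passed with any 1 of the 16 arrays left out (adjusted p up to 0.0479) and under 3 of 4 background and scaling alternatives. Col1a1 was at 0.94 (adjusted p = 0.105), with -0.27 in T1R1, 0.80 in T2R1 and 2.30 in T3R1, and is no member. The summed fibroblast markers were 451 to 599 in T1R1, 558 to 653 in T2R1 and 731 to 829 in T3R1, against 652 to 681 in control hearts, and their part in these values was not tested.

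Muscle stress genes gave few calls. Of 20 stress and fetal genes, Mybpc2, for a fast-type myosin-binding protein, rose by 1.02 ± 0.20 (adjusted p = 0.0137), with 0.55 in T1R1, 1.29 in T2R1 and 1.22 in T3R1. T1R1 replicate 1, at 1.50, lay below the control range of 1.65 to 2.12. Mybpc2 is also 1 of 9 skeletal muscle markers tested, whose summed level was 148 to 316 in T1R1, 233 to 310 in T2R1 and 172 to 237 in T3R1, against 162 to 242 in control hearts, and it did not pass without control replicate 4 (adjusted p up to 0.0516). Myh7, for the slow myosin heavy chain of fetal and stressed heart, was at 1.29 (adjusted p = 0.121), Nppb at 0.81 and Nppa at 0.050, and none passed. Hspb7, for a small heat shock protein of heart, rose by 0.50 ± 0.14 (adjusted p = 0.0448), the one call among 18 chaperones, and passed in 4 of 16 fits with 1 array left out (adjusted p 0.00943 to 0.115). For Hspb7, T1R1 replicate 1, at 5.79, lay within the control range of 5.76 to 5.83. Canx, for the chaperone calnexin, fell by 0.33 ± 0.089 (adjusted p = 0.0432), the one call among 20 endoplasmic reticulum stress genes, and passed in 6 of 16 fits with 1 array left out (adjusted p 0.00894 to 0.123).

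Some markers of other cells of the heart were shared calls. Of 16 nerve and Schwann cell markers, Nefl, for the light neurofilament chain, fell by 1.73 ± 0.39 (adjusted p = 0.0211), with -2.31 in T1R1 and -0.11 in T3R1 (adjusted p = 0.00215 among the exposures). Nefl was at least 3.95-fold lower in T2R1 hearts, none of them well above background. Without control replicate 1 its T3R1 difference was 0.0063, which ends its place among the members. Without control replicate 4 or T3R1 replicate 2 Nefl was likewise not of one direction. Over the fits with 1 array left out its adjusted p reached 0.0779. Prph, for the neuronal filament protein peripherin, was at -1.45 (adjusted p = 0.0569). The summed nerve markers were 18.7 to 23.2 in T1R1, 20.6 to 25.0 in T2R1 and 26.0 to 29.7 in T3R1, against 23.1 to 27.7 in control hearts.

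Egfl7, a secreted protein of vessels, fell by 0.38 ± 0.094 (adjusted p = 0.0297), the one call among 14 endothelial markers. Of these markers 11 were of one lower direction, against 28.9% of all features. Egfl7 did not pass without control replicate 2, 3 or 4 (adjusted p up to 0.102). The summed endothelial markers were 351 to 417 in T1R1, 358 to 403 in T2R1 and 310 to 350 in T3R1, against 375 to 545 in control hearts. Dkk3, a secreted Wnt modulator, fell by 0.77 ± 0.21 (adjusted p = 0.0454), the one call among 13 atrial markers. Of the atrial markers 11 were of one lower direction, against the same 28.9%. Dkk3 passed in 5 of 16 fits with 1 array left out (adjusted p 0.0063 to 0.151). The summed atrial markers were 1114 to 1689 in T1R1, 1202 to 1977 in T2R1 and 1442 to 1770 in T3R1, against 1189 to 2096 in control hearts. Of 12 smooth muscle and pericyte markers, Itga8, an integrin chain, fell by 0.77 ± 0.18 (adjusted p = 0.024), with -1.22 in T1R1, -0.88 in T2R1 and -0.21 in T3R1, and did not pass without control replicate 4 (adjusted p up to 0.0798). Cspg4, the NG2 proteoglycan of pericytes, rose by 0.30 ± 0.080 (adjusted p = 0.0376), with 0.19 in T1R1, 0.23 in T2R1 and 0.50 in T3R1, and passed in 8 of 16 fits with 1 array left out (adjusted p 0.00963 to 0.116). Their summed level was 134 to 161 in T1R1, 145 to 177 in T2R1 and 195 to 218 in T3R1, against 149 to 198 in control hearts, and the part of cell makeup in these results was not tested.

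Adipocyte and macrophage markers held no shared call. Of all features, 28.9% were of one lower direction. Of 14 adipocyte markers, 12 were of one lower direction, 0 passed by limma and 5 of these had an unadjusted p under 0.05. Their median difference was -2.51 in T1R1, -1.56 in T2R1 and -0.31 in T3R1, and their summed level was 143 to 366 in T1R1, 154 to 274 in T2R1 and 209 to 353 in T3R1, against 237 to 543 in control hearts. Of 15 macrophage and monocyte markers, 0 passed by limma (unadjusted p under 0.05 in 1 higher and 1 lower member). Without control replicate 1, 8 of these markers rose, against 7.56% of all features. Their summed level was 71.0 to 85.2 in T1R1, 73.2 to 89.4 in T2R1 and 107.1 to 137 in T3R1, against 65.8 to 136 in control hearts, the highest control being replicate 1. The summed ventricular cardiomyocyte markers were 7254 to 8313 in T1R1, 7830 to 9074 in T2R1 and 5832 to 7975 in T3R1, against 4729 to 10086 in control hearts, the lowest control being replicate 1. The part of fat, macrophages and muscle cells in the results above was not tested.

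The calls whose exposed and control hearts did not overlap were ranked by the smallest of their 3 differences. Among the 12 gene names that rose and ranked first, that smallest difference ran from 0.81 in 1700019A02Rik, 1.21 in T1R1 and 1.48 in T2R1, to 0.24 in Homer3, for a synaptic scaffold protein. Prss48, for a serine protease, rose by 0.65 ± 0.088 (adjusted p = 0.00416), with 0.61 in T1R1, 0.83 in T2R1 and 0.52 in T3R1. Set against control one at a time, T1R1, T2R1 and T3R1 each passed (adjusted p = 0.00352, 0.000357 and 0.0423). Prss48 passed with any 1 of the 16 arrays left out (adjusted p up to 0.023) and under 3 of 4 background and scaling alternatives. Ackr2, for a decoy receptor that clears inflammatory chemokines, rose by 0.39 ± 0.11 (adjusted p = 0.0436), with 0.30 in T1R1, 0.32 in T2R1 and 0.54 in T3R1, and passed in 5 of 16 fits with 1 array left out (adjusted p 0.0223 to 0.132). Sec14l2, for a lipid-binding protein, rose by 0.68 ± 0.18 (adjusted p = 0.0358) and passed in 10 of 16 fits with 1 array left out (adjusted p 0.0203 to 0.104). Arhgap1, for a GTPase-activating protein, rose by 0.33 ± 0.075 (adjusted p = 0.0202) and did not pass without control replicate 3 or 4 (adjusted p up to 0.0587). The other genes were Olfr921, Adam5, Sun5, Krtap1-4, AA986860 and Gm3448, with rises of 0.38 ± 0.11 in AA986860 to 0.84 ± 0.14 in Krtap1-4. Adam5, Sun5, Krtap1-4 and Gm3448 differed among the exposures, and a second Adam5 probe was at -0.10 and did not pass. A second Gm3448 probe, at 0.18, did not pass either. Homer3 was at -0.0045 under median scaling. Homer3 passed in 7 of 16 fits with 1 array left out (adjusted p 0.024 to 0.131), and AA986860 passed in 3 of 16 fits with 1 array left out (adjusted p 0.0272 to 0.151).

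Among the 12 gene names that fell and ranked first, Avpr1a led and the smallest difference was 0.35 in size in 2810405F17Rik. Ccng2, for cyclin G2, a FoxO target that slows the cell cycle, fell by 0.72 ± 0.16 (adjusted p = 0.0223), with -0.92 in T1R1, -0.79 in T2R1 and -0.44 in T3R1, and did not pass without control replicate 3 or 4 (adjusted p up to 0.0709). Peli2, for a ubiquitin ligase of Toll-like receptor signalling, fell by 0.61 ± 0.13 (adjusted p = 0.015) and did not pass without control replicate 4 (adjusted p up to 0.0605). Asf1a, for a histone chaperone, fell by 0.43 ± 0.089 (adjusted p = 0.0155) and did not pass without control replicate 3 (adjusted p up to 0.0548). Oxr1, for a protein that protects from oxidative damage, fell by 0.40 ± 0.10 (adjusted p = 0.0318) and did not pass without control replicate 2, 3 or 4 (adjusted p up to 0.0926). Tspan18, for a tetraspanin of endothelium, fell by 0.58 ± 0.12 (adjusted p = 0.0165), with its other probes at -0.74, which passed, and 0.31, which did not, and did not pass without control replicate 3 or 4 (adjusted p up to 0.0637). The others were Gm10910, Dzank1, 5031434O11Rik, Sycp3, 4921531C22Rik and 2810405F17Rik. The F test among exposures passed for none of the 12 (adjusted p from 0.159 to 0.99), which does not show that the exposures were equal.

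**Figure D4:**
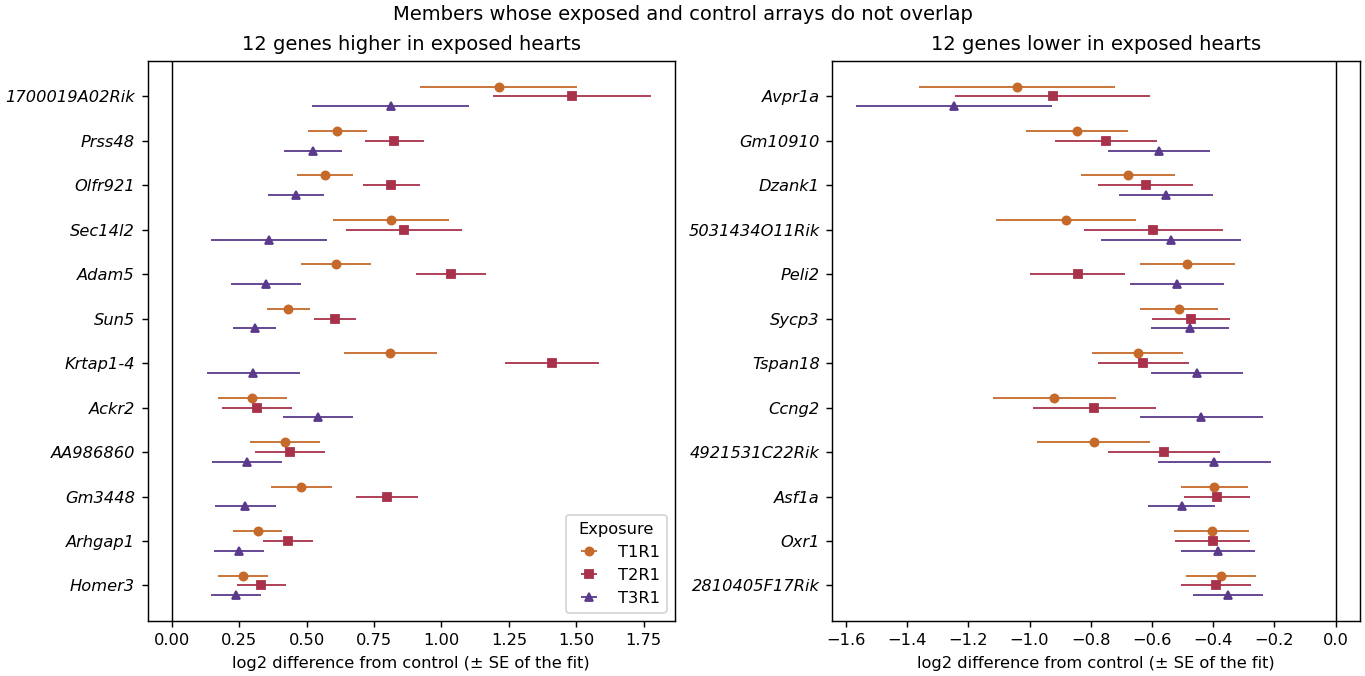
Log2 difference from control in T1R1, T2R1 and T3R1 for the 12 higher and 12 lower gene names ranked first, with the SE of the fit as bars. Every plotted gene lies on one side of 0 in the 3 exposures, which is how they were chosen, and Avpr1a, at -1.04, -0.92 and -1.25, lies lowest.

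Long noncoding RNA regions held more calls that rose than fell as reported. Of 3045 regions tested, 169 rose (5.55%) and 10 fell (0.328%), against 1.81% and 2.09% of gene names. The regions were dim, with a median level of -2.03, against 0.26 for gene names. Calls that rose were dim in both classes: the median level was -2.29 for regions and -2.23 for gene names. For those that fell it was -0.79 and 0.90. The part of signal level in these counts was not tested. The counts depended on the processing: 21 rose and 6 fell with normexp, 62 rose and 25 fell with quantile normalisation, 70 rose and 46 fell with the authors' deposited values, 62 rose and 317 fell with median scaling and 179 rose and 188 fell without control replicate 1. The array probes of 3 regions whose exposed and control hearts did not overlap are shown, as the scanner files give them, because they identify transcripts that have no gene symbol. Coordinates are mm9 as deposited, and the region's name gives its start, end and strand (F plus, R minus).
chr2:108456668-108532418_F, probe at chr2:108525760-108525819, plus strand: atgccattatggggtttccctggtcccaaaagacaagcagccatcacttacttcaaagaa
chr2:181650800-181669350_R, probe at chr2:181666865-181666924, minus strand: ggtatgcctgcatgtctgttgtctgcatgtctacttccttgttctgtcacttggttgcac
chr14:21461716-21462270_F, probe at chr14:21462202-21462261, plus strand: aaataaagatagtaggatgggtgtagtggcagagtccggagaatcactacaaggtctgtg
The first region rose by 0.71 ± 0.11 (adjusted p = 0.00656), with 0.57, 0.96 and 0.60, and its second probe, at 0.44, did not pass. The second rose by 0.73 ± 0.11 (adjusted p = 0.00537), with 0.86, 0.87 and 0.44, which differed among the exposures (adjusted p = 0.0374), and its second probe was at 0.75 and did not pass. Both passed with any 1 of the 16 arrays left out and under 2 of 4 background and scaling alternatives. The third fell by 0.32 ± 0.071 (adjusted p = 0.0185), with -0.27, -0.38 and -0.32, its other probes were at -0.33 and -0.25, and it did not pass without control replicate 3 or 4 (adjusted p up to 0.0701).

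A further noncoding region, on chromosome 18, rose by 0.92 ± 0.15 (adjusted p = 0.00676), with 0.79, 0.97 and 1.00. Set against control one at a time, T1R1, T2R1 and T3R1 each passed (adjusted p = 0.0148, 0.00239 and 0.0267). Its second probe, at 0.77, passed. The region passed with any 1 of the 16 arrays left out (adjusted p up to 0.0248) and under 2 of 4 background and scaling alternatives.

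How many calls lay on each side depended on the scaling. The calls that rose were 58.1% of shared calls as reported, 23.0% with normexp background correction, 31.6% with quantile normalisation, 26.6% with the authors' deposited values and 3.16% with median scaling, which moved the median of all features to -0.28. Of the calls that rose 12 passed under all 4 of these alternatives, and of those that fell 110. Ciart, Nr1d1, Lcn2, Mybpc2, Arntl, Gbp4, Gbp7, Iigp1, Fbxo32 and Egfl7 were among them. At the edge of the one-direction rule, Gm2155 lay just inside, with 0.80, 0.98 and 0.0022, and Olfr1230 just outside, with 1.42, 1.88 and -0.00039. Farther outside, Skint5 was called by the mean contrast with 1.29, 1.40 and -0.63. Olfr1230 was chosen after its values were seen.

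**Figure D5:**
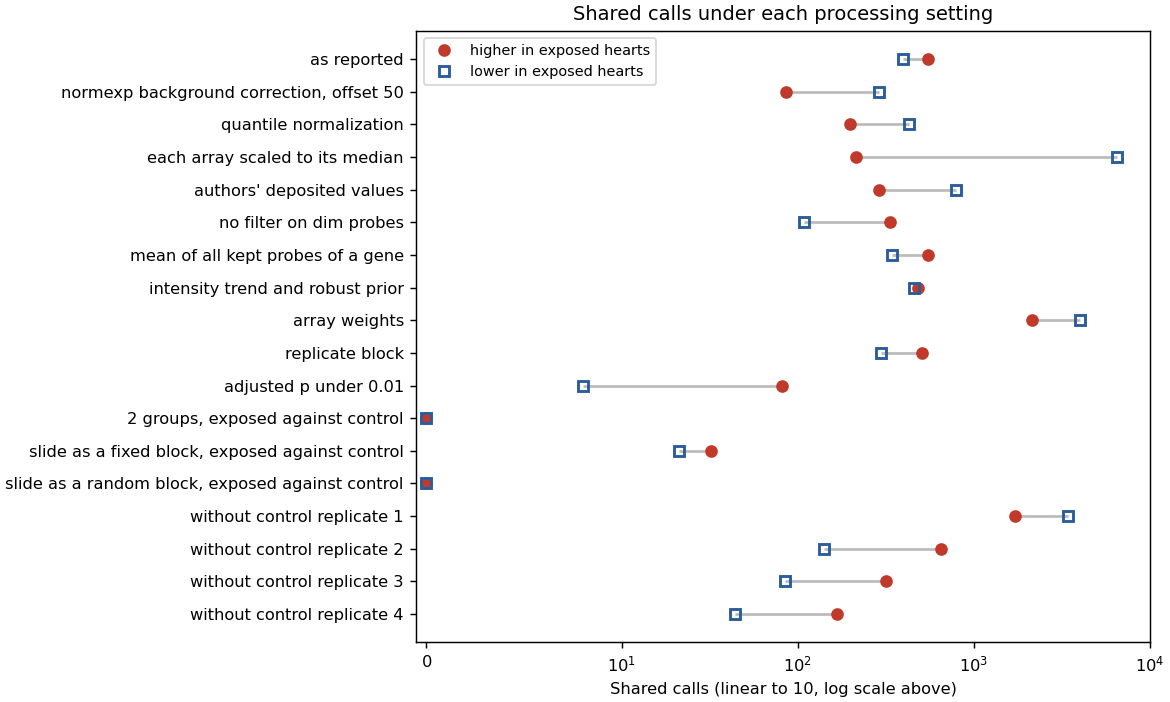
Number of shared calls higher (filled circles) and lower (open squares) in exposed hearts under each processing setting, on an axis that is linear near 0 and logarithmic above. As reported there were 548 and 395. Leaving out control replicate 1 gave 1720 and 3434, and the fit of 12 exposed against 4 control hearts gave 0 of each.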

How the data were processed

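RNA of 16 hearts was measured on 16 Agilent 1-colour arrays. Per the file headers, the authors scanned them with Feature Extraction 10.7.3.1, whose processed signal is an intensity with background removed and spatially detrended within each array. The authors' deposited value table holds log2 values that rank exactly as the raw mean signal, with every column median at 6.1, so they are scaled between arrays but not centred by gene, and the sources used here do not name their background treatment.

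From the processed signals, outlier spots and control spots were left out, each array was divided by its 75th percentile, log2 was taken and repeated spots were averaged. Probes entered the tests if the scanner called them well above background in every array of 1 group or more (31390 of 55681), and each gene name kept its brightest probe. No probe saturated. A fit of 4 groups with 4 arrays each (limma 3.58.1, R 4.3.3) gave every adjusted p here, by Benjamini-Hochberg over 22763 features. The labels call the hearts individual mice. The number of arrays limits the precision: on simulated data, shared calls recovered 39.7%, 78.2% and 94.9% of changes of 0.5, 1 and 2 on the log2 scale. The simulation drew independent noise and gave all exposed arrays the same shift. It held no slide effect and no divergent control array, so these shares need not hold for the hearts measured here.

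Genes were named by rule: the 12 higher and 12 lower non-overlapping shared calls with the largest smallest difference, up to 4 genes per list by p, the clock and stress genes fixed by name, and the leading long noncoding RNA regions. Members and lists were chosen with earlier results of these data known, and 15 further genes after their values were seen. Alternatives covered background, scaling, the authors' values, the dim-probe filter, the probe per gene, the variance prior, array weights, the threshold, the slide, the replicate number as a block and each array left out. The random slide block in the exposed against control fit, and the counts without control replicate 1, were chosen after seeing the data. Probes carry the array design's gene names and mm9 positions, and promoters are RefSeq GRCm38.p6. Some genes of the lists are not reported here.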

Additional observations from a re-analysis of the deposited data

Results flagged for a closer look

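Within a group of 4 hearts, 1 level lay far from the other 3 (Dixon's criterion at 95%) in 26 of 376 gene and group pairs (6.91%), where chance gives about 1 in 20. In 12 of these the heart was control replicate 1, with log2 levels of -0.16 for Sun5, -2.89 for Cry1, 1.98 for Nfil3, -4.23 for Cyp1a1, 3.29 for Lcn2, 5.71 for Col1a1, 2.32 for Col6a2, 1.82 for Cspg4, 2.03 for F3, 2.65 for Flcn, -0.29 for Fnip2 and -2.38 for Selp. The others were 1700019A02Rik in T3R1 replicate 2 at -3.05, Olfr921 in control replicate 4 at -3.79, the chromosome 18 noncoding region in T2R1 replicate 1 at -2.29, Per2 in T2R1 replicate 3 at -3.06, Cyp1a1 in T1R1 replicate 4 at -1.47, Nppb in T1R1 replicate 1 at 5.18, Iigp1 in T2R1 replicate 1 at 0.15, Gbp3 in T3R1 replicate 2 at 0.78, Col6a2 in T3R1 replicate 1 at 3.39, Itga8 in T1R1 replicate 2 at -1.60, Cspg4 in T3R1 replicate 4 at 2.03, Canx in T2R1 replicate 3 at 4.65, Canx in T3R1 replicate 2 at 5.31 and Gm2155 in control replicate 2 at -2.34.

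The exposures differed by the F test (limma, Benjamini-Hochberg) in 23 of the 75 named shared calls. The adjusted p was 0.00468 for Adam5, 0.033 for Sun5, 0.00129 for Krtap1-4, 0.0108 for Gm3448, 0.0374 for chr2:181650800-181669350_R, 0.0188 for Ciart, 0.000852 for Dbp, 0.00688 for Arntl, 0.00215 for Nefl, 0.00189 for Scube3, 0.00442 for Cd247, 0.000867 for Gbp4, 0.0115 for Omd, 0.00555 for Col6a2, 0.0103 for Itga8, 0.0485 for Cspg4, 0.0476 for Gnal, 0.0109 for Cyp1b1, 0.0217 for Irf1, 0.038 for Gbp5, 0.0261 for Smad3, 0.0403 for Sox4 and 3.8e-05 for Gm2155. T3R1 lay on a different slide from T1R1 and T2R1, so for these genes exposure and slide cannot be told apart where T3R1 is the group that differs.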

How the results depend on the processing

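Against 548 higher and 395 lower shared calls, with 478 differing among exposures, normexp gave 86 higher and 288 lower calls (161 differing), quantile normalisation 198 higher and 428 lower calls (265), median scaling 213 higher and 6536 lower calls (2166), the authors' values 288 higher and 794 lower calls, no dim-probe filter 336 higher and 108 lower calls (271), array weights 2126 higher and 4004 lower calls (1280) and an adjusted p under 0.01 81 higher and 8 lower calls (68). The mean of a gene's probes gave 550 higher and 342 lower calls and a trended, robust prior 484 higher and 457 lower calls. With slide as a fixed block there were 32 higher and 21 lower calls. The fit of 2 groups gave 0 higher and 0 lower by limma (3681 features at an unadjusted p under 0.05), and the random slide block 0 and 0 (3927). A random slide block in the 4-group fit was not run, because slide is fixed by the groups there. Leaving out 1 array gave 166 to 1720 higher calls, 44 to 3434 lower calls and 168 to 1774 differing. The lowest counts came without control replicate 4 and the highest without control replicate 1, and without control replicate 2 or 3 there were 651 higher and 141 lower calls, and 318 higher and 85 lower calls. The count also moved by over 1.5 times without T2R1 replicate 2 (433 higher and 237 lower calls), T2R1 replicate 3 (384 higher and 248 lower calls), T2R1 replicate 4 (361 higher and 211 lower calls) and T3R1 replicate 4 (364 higher and 311 lower calls). The replicate numbers do not pair the hearts: deviations of same-numbered hearts correlated from -0.32 to 0.39, 5 of 16 hearts correlated best with their own number, and the replicate block gave 509 higher and 297 lower calls. Of 75 named shared calls 19 passed with any array left out, 22 under all 4 background and scaling alternatives, and 6 with slide as a fixed block. Differences that changed sign were, under normexp, Nr1d2 0.089 and Clock 0.067; under quantile normalisation, Per2 -0.010, Nr1d2 0.034 and Cry2 0.017; under median scaling, Homer3 -0.0045, Per2 -0.22 and Nppa -0.23. With the authors' values they were Nr1d2 0.15, Clock 0.072 and Tef 0.016, with the probe mean Nr1d2 0.042, with array weights Clock 0.016 and Nppa -0.066, with the fixed slide block Per1 -0.063, Per2 -0.16, Clock 0.045, Fkbp5 0.058, Tat -0.33, Crhbp -0.50, Prph 0.046 and Skint5 -0.63, and with the random one Per2 -0.093, Clock 0.016, Fkbp5 0.0068, Tat -0.067, Crhbp -0.084 and Skint5 -0.25. Leaving out 1 array, differences that changed sign ran from -0.057 to 0.25 for Per2, from -0.18 to 0.10 for Per3, from -0.12 to 0.070 for Nr1d2, from -0.12 to 0.023 for Clock, from -0.18 to 0.040 for Cry2, from -0.19 to 0.019 for Tef, from -0.40 to 0.055 for Hlf and from -0.089 to 0.11 for Nppa. Homer3 is the one shared call among these, and the cause was not tested. In 9 higher and 6 lower calls some group had no heart well above background, where the size is only bounded.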

Other observations

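The genes here were chosen after their values were seen. Sirt1, for a deacetylase that senses the energy state, fell by 0.39 ± 0.078 (adjusted p = 0.0136), with -0.31 in T1R1, -0.41 in T2R1 and -0.46 in T3R1, and did not pass without control replicate 4 (adjusted p up to 0.0564). Ppargc1a, for the PGC-1 alpha coactivator of mitochondrial genes, fell by 0.73 ± 0.20 (adjusted p = 0.0445), with -0.69, -0.73 and -0.76 in the same order. Its second probe, at -0.63, did not pass, and it passed in 1 of 16 fits with 1 array left out (adjusted p 0.00102 to 0.164). Flcn and Fnip2, for folliculin and a partner protein that act in nutrient sensing, fell by 0.54 ± 0.15 and 0.84 ± 0.18 (adjusted p = 0.0425 and 0.0182). Flcn passed in 4 of 16 fits with 1 array left out (adjusted p 0.0013 to 0.14), and Fnip2 did not pass without control replicate 3 or 4 (adjusted p up to 0.0755). Tbc1d4, for AS160, which restrains glucose transporter traffic, fell by 0.41 ± 0.081 (adjusted p = 0.0137) and passed with any 1 of the 16 arrays left out (adjusted p up to 0.0472) and under 4 of 4 background and scaling alternatives. The second Tbc1d4 probe, at -0.33, did not pass.

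Npy1r, for a receptor of the sympathetic co-transmitter neuropeptide Y, fell by 0.77 ± 0.20 (adjusted p = 0.0338) and passed in 11 of 16 fits with 1 array left out (adjusted p 0.0123 to 0.104). Kcna1, for a voltage-gated potassium channel, fell by 1.00 ± 0.25 (adjusted p = 0.0327) and did not pass without control replicate 2, 3 or 4 or T2R1 replicate 4 (adjusted p up to 0.123). Serpina3n, for an acute-phase protease inhibitor, rose by 2.11 ± 0.57 (adjusted p = 0.0413), with 1.39 in T1R1, 2.18 in T2R1 and 2.77 in T3R1, and passed in 5 of 16 fits with 1 array left out (adjusted p 0.0037 to 0.131). Its control levels were 2.12, -0.95, -1.06 and -0.50, so that control replicate 1 lay with the exposed hearts (-0.55 to 3.18). Control replicate 4 lay just above the lowest exposed heart. Selp, for the adhesion receptor P-selectin of platelets and endothelium, rose by 0.90 ± 0.22 (adjusted p = 0.0279) and did not pass without control replicate 2, 3 or 4 (adjusted p up to 0.0964). Bhlha9, for a transcription factor known from limb development, rose by 2.04 ± 0.32 (adjusted p = 0.00656), with 1.86 in T1R1, 2.46 in T2R1 and 1.79 in T3R1, and passed with any 1 of the 16 arrays left out (adjusted p up to 0.0307) and under 4 of 4 background and scaling alternatives. Smad3, for a transducer of TGF-beta signals, fell by 0.47 ± 0.082 (adjusted p = 0.00898), with -0.60 in T1R1, -0.57 in T2R1 and -0.24 in T3R1, and passed with any 1 of the 16 arrays left out (adjusted p up to 0.0414) and under 4 of 4 background and scaling alternatives. Sox4, for a transcription factor of developing tissue, fell by 0.69 ± 0.14 (adjusted p = 0.0137) and passed with any 1 of the 16 arrays left out (adjusted p up to 0.0487) and under 4 of 4 background and scaling alternatives, while its other probes, at -0.59 and -0.43, did not pass.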
